A study of Mus musculus with 12 samples.

Results

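The genes described here are 31 genes that the mouse liver uses to make bile acids and to move them, with other organic ions and lipids, between blood, hepatocyte and bile. They were chosen by function, with earlier results of these data known, and grouped by step. The groups are 8 genes of synthesis, 2 of conjugation, 6 transporters of sinusoidal uptake, 7 of canalicular export and 5 of basolateral export. The others are the ileal and biliary bile acid carrier Slc10a2, and the pair Fgfr4 and Klb, which together form the hepatic receptor for an intestinal growth factor. All 31 have a row among the 55401 genes of the count table, and 30 were among the 13205 genes with enough counts to be tested. Slc51a had too few counts.

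Livers of female mice aged 15 weeks, 6 iTgMir483 and 6 Control, were profiled by RNA-seq. iTgMir483 mice carry a Tet-off transgene at Rosa26, made in a targeted embryonic stem cell clone and kept on a C57BL/6J background, in which the tetracycline transactivator drives 1 copy of Mir483 when doxycycline is absent. Mothers drank doxycycline in pregnancy and it was withdrawn at birth, so the transgene was on from birth until the livers were taken, and the mice ate standard chow. The Controls were littermates from the same crosses of transgene-carrying males with females homozygous for CMV-Cre, a ubiquitous Cre that removes the Neo cassette. By this cross each offspring receives a Cre allele from its mother. The genotype of each Control is otherwise not given in the sources used here. Nothing in these sources restricts the transgene to hepatocytes.

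Hepatocytes make bile acids from cholesterol by a classic route that opens with Cyp7a1 and an alternative route that runs through Cyp27a1 and Cyp7b1. The products are conjugated, pumped into the canaliculus with phospholipid, reabsorbed in the ileum and taken up again across the sinusoidal membrane. When bile acids accumulate, basolateral exporters return them to blood, and the bile acid receptor FXR (Nr1h4) and intestinal FGF15 acting on Fgfr4 and Klb hold synthesis down.

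The mature products of Mir483 are printed with the seed, bases 2 to 8, in capitals, because the seed is the part that pairs with a target transcript. Both were read from RefSeq (GRCm38.p6) and lie on the minus strand of chromosome 7, miR-483-3p at chr7:142654932-142654952 and miR-483-5p at chr7:142654968-142654989.
mmu-miR-483-3p: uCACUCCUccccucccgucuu
mmu-miR-483-5p: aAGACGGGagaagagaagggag
The letters that pair with the 3p seed, AGGAGTG, were searched on the transcribed strand in the longest annotated 3′ untranslated region (UTR) of each gene. They occurred in 2 of the 31 genes (6.5%), against 1522 of 12098 tested genes with such a region (12.58%). The letters for the 5p seed, CCCGTCT, occurred in 0 of the 31 and in 394 of the 12098 (3.26%). The 2 genes are the sinusoidal carriers Slco1a4 and Slco2b1, whose matches, in capitals, lie in exon 17 at chr6:141806479-141806507 and in exon 14 at chr7:99659958-99659986, both on the minus strand.
Slco1a4: gttatgtacttAGGAGTGctaactctctc
Slco2b1: ccaccctgaccAGGAGTGgcatcctctga
The transgene's product checks the labels. Mir483 had 0 counts in each Control library and between 23.3 and 54.3 CPM (reads scaled to a common library total) in the iTgMir483 libraries. These reads come from a polyadenylated RNA preparation and are not a measure of the mature microRNAs.

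Library totals were 12244123 to 30431286 counts in Controls and 12415140 to 15846175 in iTgMir483 livers. Levels are given as CPM after TMM scaling, and a gene was counted as changed at an adjusted p under 0.05 by edgeR's quasi-likelihood test (Benjamini-Hochberg over all 13205 genes) with a fold over 1.5. On the per-library values, Control replicate 1 stood apart: it was the highest or the lowest Control for 16 of the 30 tested genes, and its deviations correlated at 0.47 with those of iTgMir483 replicate 1. In the iTgMir483 group, replicate 4 was the highest or the lowest for 16 of 30. Several results are also given without these libraries.

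By this test 8 of the 30 genes changed (26.67%), where 11.1% of all tested genes did. The 5 that fell were Cyp8b1, Cyp7b1 and Hsd3b7 of synthesis and Slco1a1 and Slco1a4 of sinusoidal uptake (16.67%, against 2.73% of all tested genes). The 3 that rose were the exporters Abcb1a, Abcc4 and Slc51b (10%, against 8.41%). No gene of synthesis, conjugation or sinusoidal uptake rose, and no exporter fell by this rule. With the adjusted p alone 10 of 30 passed (18.6% of all tested genes did), and the 2 additions, Abcc3 and Slc47a1, were exporters with lower levels and folds under 1.5. The median log2 fold change was -0.09 over the 30 genes and 0.01 over all tested genes. Since RNA came from whole liver, fewer cells of a type and less RNA per cell cannot be told apart.

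**Figure D1:**
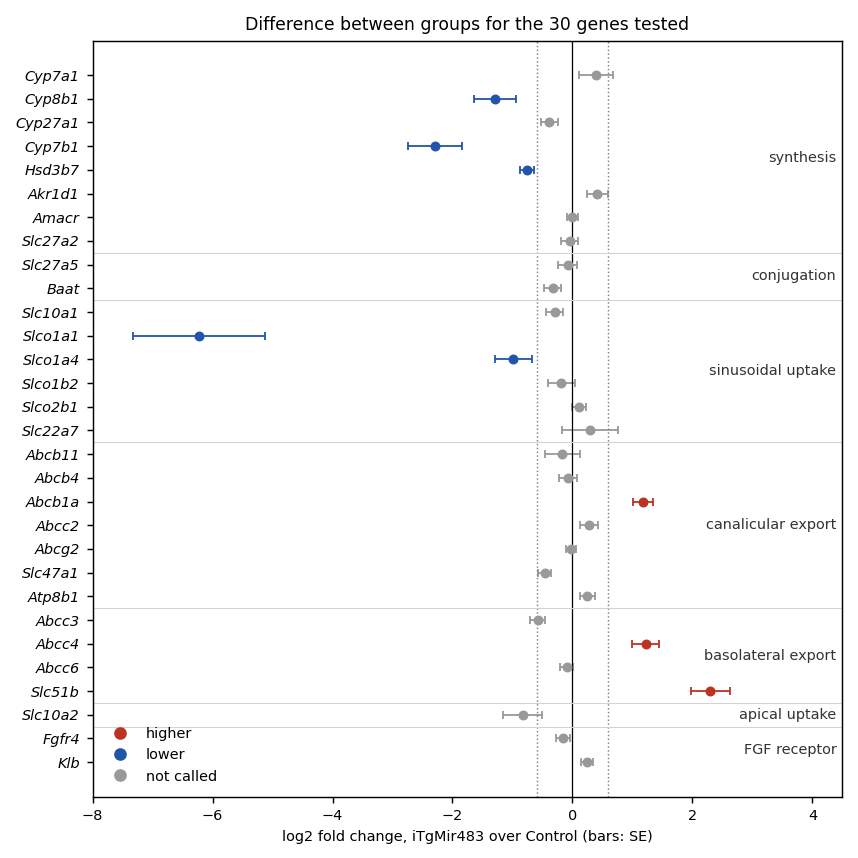
Log2 fold change (iTgMir483 over Control, horizontal axis) of the 30 tested genes, with bars of 1 SE and dotted lines at a fold of 1.5, grouped by role. The 5 genes in blue (lower) are all of synthesis or sinusoidal uptake and the 3 in red (higher) are all exporters, while the 22 in grey were not called.

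The genes differ widely in level. Per kilobase of merged exons, the highest Control mean was that of the acyl-CoA synthetase Slc27a2, at 655.4 CPM per kb, followed by Slc27a5 (470.3), Slc10a1 (344.9) and Cyp8b1 (291.9). The lowest were Abcb1a (1.43), Abcc4 (1.02), Slc51b (0.88) and Slc51a (0.055). The 3 genes that rose thus stood at places 28 to 30 of 31 in Controls, and in iTgMir483 livers Slc51b moved to place 24 with 4.29 CPM per kb. Cyp8b1, the only one of the 5 highest Control genes to fall, moved from place 4 to place 6. These ranks order mean levels and carry no test, and Slc27a2, Slc27a5 and Slc10a1 held places 1 to 3 in both groups.

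**Figure D2:**
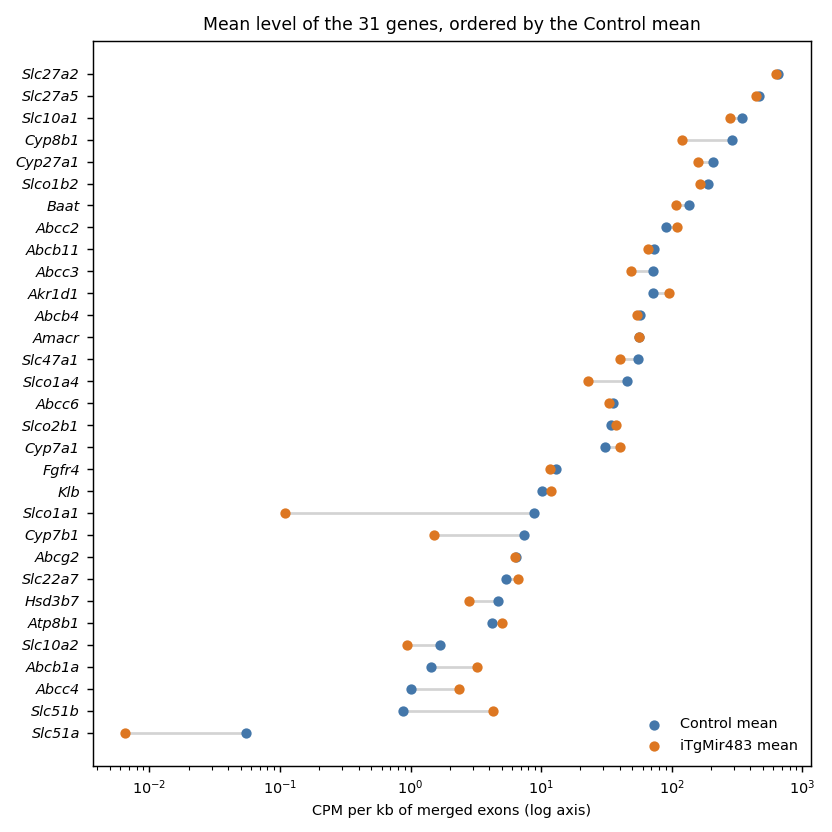
Mean level of each of the 31 genes in CPM per kb of merged exons (log axis), in Control (blue) and iTgMir483 (orange) livers, n = 6 per group, ordered by the Control mean. The widest gaps are those of Slco1a1, from 8.88 to 0.11, and of Slc51a, which has 17 and 2 counts in all.

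Synthesis was first examined at Cyp7a1, the rate-limiting enzyme of the classic route (chr4:6265612-6275633, minus strand, GRCm38). Cyp7a1 ranged from 90.2 to 242.9 CPM in Controls (median 105.6) and from 96.3 to 243.6 CPM in iTgMir483 livers (median 157.6). The groups overlapped almost completely, and the high Control value was replicate 6 alone. On the log2 scale the difference was 0.40 (adjusted p = 0.352, SE 0.29), so no difference was detected. Cyp7a1 follows the daily clock. Of 12 clock genes 0 were called. Nr1d1 was above every Control in 5 of 6 iTgMir483 livers and below every Control in 1 (log2 fold change 0.67, adjusted p = 0.251). Cry1 was below every Control in 5 of 6 and above every Control in 1 (-0.51, adjusted p = 0.331). The clock output gene Dbp ranged from 7.60 to 67.4 CPM within Controls and from 26.9 to 100.8 CPM within iTgMir483 livers. The part of collection time in the values of Cyp7a1 was not tested.

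Cyp8b1, the sterol hydroxylase that directs the classic route to cholic acid (chr9:121914356-121916305, minus strand), fell. Its Control livers held 249.6, 279.5, 812.1, 662.7, 619.1 and 792.6 CPM in order of replicate number, and the iTgMir483 livers 84.8, 243.5, 364.0, 212.1, 193.4 and 296.0 CPM. Control replicates 1 and 2 lay within the iTgMir483 range, and 4 of 6 iTgMir483 livers were below every Control. The mean went from 569.3 ± 247.4 to 232.3 ± 95.1 CPM (SD, n = 6 each), a log2 fold change of -1.29 (adjusted p = 0.0190, SE 0.35). Without both replicate 1 libraries it was -1.27 (adjusted p = 0.00495). Within each library, the ratio of Cyp8b1 to Cyp7a1 was 2.10 to 8.19 in Controls (median 4.59) and 0.71 to 3.08 in iTgMir483 livers (median 1.37), with 5 of 6 iTgMir483 livers below all Controls.

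In the alternative route, Cyp7b1, the oxysterol hydroxylase (chr3:18071950-18243338, minus strand), fell further than any other gene of synthesis. The Control livers held 32.0, 5.87, 14.6, 16.2, 15.0 and 12.1 CPM and the iTgMir483 livers 7.35, 2.36, 2.76, 4.32, 2.19 and 0.62 CPM. Only iTgMir483 replicate 1 exceeded the lowest Control, replicate 2. Its log2 fold change was -2.29 (adjusted p = 0.00390, SE 0.45), and -2.37 without both replicate 1 libraries. Cyp27a1, the mitochondrial side-chain hydroxylase that opens this route, went from 451.9 ± 53.9 to 344.9 ± 78.8 CPM (SD, n = 6 each). Of its iTgMir483 livers 5 were below every Control and replicate 4 stood at 502.1 CPM. Its log2 fold change of -0.39 (SE 0.14) did not pass (adjusted p = 0.0680). Without replicate 4 it was -0.53 (adjusted p = 0.00527), and DESeq2 with all libraries gave -0.40 (adjusted p = 0.0280), both still under the fold of 1.5.

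Hsd3b7, which oxidises and isomerises the sterol ring in both routes (chr7:127800604-127803802, plus strand), fell by the smallest fold of the 5 and with the tightest groups. Its levels were 10.5 to 16.0 CPM in Controls (median 13.0) and 6.99 to 8.98 CPM in iTgMir483 livers (median 7.46). The groups did not overlap, and the log2 fold change was -0.76 (adjusted p = 0.00117, SE 0.12). Hsd3b7 was 1 of 6 genes of the 30 without overlap between groups (20%, against 7.92% of all tested genes). The others were Abcb1a, Abcc4 and Slc51b, higher, and Slc47a1 and Abcc3, lower.

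The other genes of synthesis were not called. Akr1d1, the reductase of the sterol ring, had a log2 fold change of 0.42 (adjusted p = 0.104), and 4 of 6 iTgMir483 livers were above every Control. Amacr, the racemase that prepares the side chain for shortening, stood at 146.9 ± 7.22 and 146.8 ± 17.0 CPM (SD, n = 6 each). Slc27a2, an acyl-CoA synthetase for very long chains, stood at 2460 ± 368.4 and 2380 ± 323.0 CPM. Over the 8 genes of synthesis the median log2 fold change was -0.22, with 3 lower, 0 higher and 5 not called. Among all tested genes 2.73% were lower and 8.41% higher.

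Neither conjugation gene was called. Slc27a5, which activates bile acids with coenzyme A, had a log2 fold change of -0.08 (adjusted p = 0.747). Baat, which joins them to taurine or glycine, went from 264.9 ± 22.7 to 210.5 ± 45.8 CPM (SD, n = 6 each), a log2 fold change of -0.33 (adjusted p = 0.122). Baat was lowest in iTgMir483 replicate 4, at 129.9 CPM, and without that library its log2 fold change was -0.22 (adjusted p = 0.152).

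**Figure D3:**
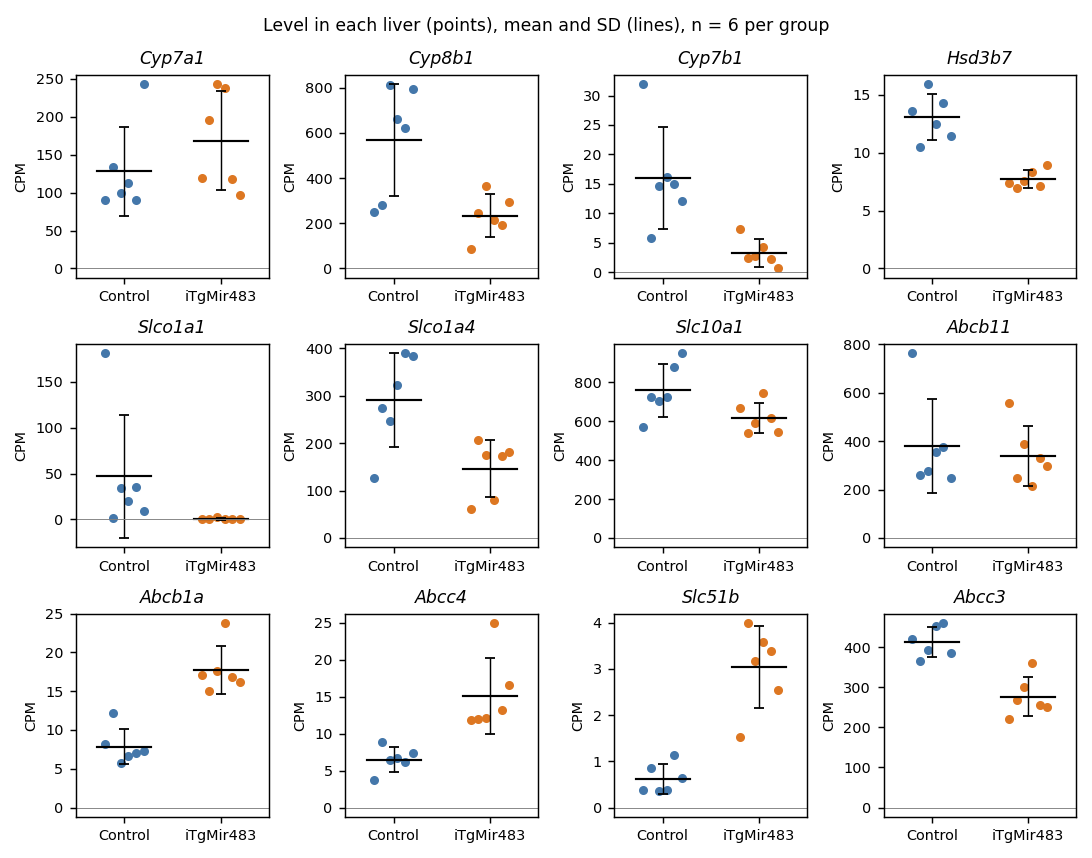
CPM of 12 genes in each liver (points, in order of replicate number from left to right), with the group mean and SD (black), n = 6 per group and axes drawn with 0. Hsd3b7, Abcb1a, Abcc4, Slc51b and Abcc3 separate the groups without overlap, Cyp8b1, Cyp7b1, Slco1a1, Slco1a4, Slc10a1, Abcb11 and Cyp7a1 overlap, and single Control livers reach 180.9 CPM for Slco1a1 and 762.0 CPM for Abcb11.

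On the sinusoidal side, Slc10a1 (NTCP), the sodium-dependent carrier for conjugated bile acids, was the highest carrier per length and was not called. It ranged from 570.3 to 948.5 CPM in Controls (median 724.4) and from 540.3 to 743.7 CPM in iTgMir483 livers (median 602.7). The ranges overlapped, with 2 of 6 iTgMir483 livers below every Control, and the log2 fold change was -0.30 (adjusted p = 0.138, SE 0.14). Without both replicate 1 libraries it was -0.39 with an adjusted p of 0.04997, still under the fold of 1.5.

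The sodium-independent carriers of the Slco family take up bile acids, steroid conjugates and drugs. Slco1a1 and Slco1a4, which fell, and Slco1b2 lie together on chromosome 6 within 317 kb, at chr6:141907282-141946962 (minus strand), chr6:141805440-141856199 (minus strand) and chr6:141629518-141686646 (plus strand). How reads shared by such paralogs were counted is not given in the sources used here, so the values of each are uncertain to that extent. The near relative Slco1a6 had 0 CPM in every library and Slco1a5 at most 0.077 CPM.

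Slco1a1 had the largest fold change of the 30 genes and the widest spread. Its Control livers held 180.9, 1.78, 34.6, 20.1, 34.9 and 8.78 CPM. The iTgMir483 livers held 7, 2, 43, 1, 2 and 0 reads, at most 2.58 CPM. Control replicate 2, at 1.78 CPM, lay below iTgMir483 replicate 3, and the other 5 iTgMir483 livers were below all Controls. Its log2 fold change was -6.23 (adjusted p = 0.00228, SE 1.10). It moved from -8.03 to -5.01 as single libraries were left out, was -4.96 without both replicate 1 libraries (adjusted p = 0.00305), and did not pass with limma-voom (adjusted p = 0.0719).

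Slco1a1 and Cyp7b1 are known to be higher in the liver of male mice, and Control replicate 1 was the highest Control for both. The 4 Y-linked genes examined had 0 counts over the 12 libraries, which bears on the labelled sex of the animals. Slco1a4, known to be higher in females, was lowest among Controls in replicate 1.

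Slco1a4 itself held 127.0 to 389.0 CPM in Controls (median 298.4) and 62.1 to 206.0 CPM in iTgMir483 livers (median 174.3). Of its iTgMir483 livers, 2 were below every Control, and Control replicate 1 was the only Control within the iTgMir483 range. The log2 fold change was -0.99 (adjusted p = 0.0384, SE 0.31). The call was lost when Control replicate 2, 4, 5 or 6 or iTgMir483 replicate 3, 4 or 5 was left out, with log2 fold changes of -1.01, -0.96, -0.89, -0.90, -1.05, -0.86 and -1.04 and adjusted p-values from 0.0502 to 0.0802, and it held without both replicate 1 libraries (-0.99, adjusted p = 0.00797). Slco1a4 is the only one of the 8 changed genes with the 3p seed match, which 12.58% of all tested genes hold.

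Slco2b1, the other gene with a seed match, stood at 205.3 ± 16.2 CPM in Controls and 222.7 ± 38.0 CPM in iTgMir483 livers (SD, n = 6 each, adjusted p = 0.518). Slco1b2, the main hepatic carrier of this family in these livers by level, had a log2 fold change of -0.19 (adjusted p = 0.598). Slc22a7, an organic anion carrier, varied from 3.57 to 23.3 CPM in Controls and from 6.35 to 30.0 CPM in iTgMir483 livers. Replicate 1 was its highest library in both groups, and its log2 fold change of 0.29 became -0.08 without iTgMir483 replicate 1.

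Canalicular export was examined at Abcb11 (BSEP), the bile salt pump (chr2:69238282-69342616, minus strand). Abcb11 held 762.0, 258.4, 277.7, 355.6, 377.4 and 248.1 CPM in Controls and 557.2, 246.9, 386.8, 215.8, 328.1 and 295.6 CPM in iTgMir483 livers. Replicate 1 was the highest library of each group, and the other 10 libraries lay between 215.8 and 386.8 CPM. The log2 fold change was -0.17 (adjusted p = 0.725, SE 0.29), 0.16 without Control replicate 1 and -0.04 without both replicate 1 libraries. No difference in Abcb11 was detected in any of these fits.

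Abcb1a, a multidrug exporter of lipophilic compounds, rose. Its levels were 5.79 to 12.19 CPM in Controls (median 7.09) and 15.0 to 23.8 CPM in iTgMir483 livers (median 17.0), without overlap. The log2 fold change was 1.18 (adjusted p = 0.000722, SE 0.17), and it ranged from 1.08 (without iTgMir483 replicate 4) to 1.35 with single libraries left out. Abcb4, which flips the phosphatidylcholine of bile and lies 145141 bases from Abcb1a on the same strand (chr5:8660077-8748575 and chr5:8893717-8959231), stood at 536.8 ± 103.3 and 512.1 ± 80.4 CPM (SD, n = 6 each, adjusted p = 0.789). Within each library Abcb4 exceeded Abcb1a by 45.8 to 92.2 times in Controls and by 21.2 to 34.6 times in iTgMir483 livers, again without overlap. The paralog Abcb1b, whose reads may be shared with Abcb1a, had 1.19 and 1.16 CPM on average and a log2 fold change of -0.07 (adjusted p = 0.901).

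The other canalicular genes were not called. Abcc2 (MRP2), the exporter of conjugated bilirubin, went from 777.5 ± 125.3 to 945.7 ± 167.9 CPM (SD, n = 6 each, adjusted p = 0.202). Abcg2, an exporter of sulphated compounds and drugs, had a log2 fold change of -0.03 and the phospholipid flippase Atp8b1 one of 0.25 (adjusted p = 0.856 and 0.174). Slc47a1, which exchanges organic cations for protons, had 156.2 to 239.2 CPM in Controls and 121.1 to 149.4 CPM in iTgMir483 livers. Those groups did not overlap and the adjusted p was 0.00942, but the log2 fold change of -0.47 (SE 0.11) is under the fold of 1.5.

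Basolateral export held the largest rises. Slc51b, the beta chain of the organic solute transporter (chr9:65412714-65422955, minus strand), rose from 0.376, 0.863, 0.349, 0.376, 1.14 and 0.640 CPM in Controls to 1.53, 3.997, 3.18, 3.59, 3.38 and 2.55 CPM in iTgMir483 livers. The lowest iTgMir483 value, replicate 1, was above the highest Control. The level is low, with 61 reads over the 6 Controls and 266 over the 6 iTgMir483 livers, and the log2 fold change was 2.30 (adjusted p = 0.000582, SE 0.32). Slc51a, its obligate partner chain, had 1, 1, 1, 6, 3 and 5 reads in Controls and 0, 0, 0, 0, 2 and 0 in iTgMir483 livers. Slc51a was not tested. In the fit without a count filter its log2 fold change was -2.54 with an adjusted p of 0.0913, so a rise of Slc51b was not accompanied by a detectable rise of its partner at this depth.

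The promoter windows of the 2 chains are printed because they make 1 transporter and their read totals went from 61 to 266 (Slc51b) and from 17 to 2 (Slc51a). Each runs from 250 bases before to 50 after the RefSeq start (GRCm38.p6, minus strand of the genome), at chr9:65422724-65423023 for Slc51b and chr16:32487830-32488129 for Slc51a, and the capitals mark the nuclear receptor half-site AGGTCA, read on either strand (TGACCT).
Slc51b: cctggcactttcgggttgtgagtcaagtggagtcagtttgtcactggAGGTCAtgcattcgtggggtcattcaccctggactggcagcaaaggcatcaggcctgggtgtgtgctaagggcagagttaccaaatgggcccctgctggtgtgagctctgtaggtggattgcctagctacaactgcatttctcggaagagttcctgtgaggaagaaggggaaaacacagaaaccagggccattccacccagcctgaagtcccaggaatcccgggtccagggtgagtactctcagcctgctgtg
Slc51a: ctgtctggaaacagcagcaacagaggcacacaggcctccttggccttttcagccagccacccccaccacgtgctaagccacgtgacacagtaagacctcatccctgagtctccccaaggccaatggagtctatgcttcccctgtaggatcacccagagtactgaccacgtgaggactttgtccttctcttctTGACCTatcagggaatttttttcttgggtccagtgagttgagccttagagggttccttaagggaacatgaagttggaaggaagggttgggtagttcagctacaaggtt
Each window holds 1 half-site, starting 203 bases before the start in Slc51b and 58 before it in Slc51a. RefSeq windows matched 21 of the 31 genes, and 11 of their 27 windows hold the half-site, where 16.3% of all 32851 windows do. A pair of other motifs searched in the same windows also occurred, the STAT5 site TTCNNNGAA in 7 of the 27 (8.3% of all windows) and the antioxidant response core TGACNNNGC in 6 of the 27 (12.4%). A match is a description of letters and not a binding site.

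Abcc4 (MRP4), which exports bile acids with glutathione and sulphated conjugates to blood (chr14:118482692-118706219, minus strand), rose. It held 3.70 to 8.80 CPM in Controls (median 6.52) and 11.8 to 25.0 CPM in iTgMir483 livers (median 12.7), without overlap. The log2 fold change was 1.22 (adjusted p = 0.00251, SE 0.22), and 1.02 without iTgMir483 replicate 4, the lowest value with 1 library left out. Abcc3 (MRP3), the more abundant exporter of glucuronides on the same membrane, lay lower in every iTgMir483 liver. It held 366.2 to 460.9 CPM in Controls and 221.6 to 360.8 CPM in iTgMir483 livers, a log2 fold change of -0.58 (adjusted p = 0.00572, SE 0.12). Its fold of 1.494 is just under the limit, which it passed in 10 of 19 other fits, among them the one without iTgMir483 replicate 4 (-0.67, adjusted p = 0.00157). Abcc6, an exporter needed for release of ATP from the liver, had a log2 fold change of -0.10 (adjusted p = 0.571).

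Abcb1a, Abcc4 and Slc51b were low in these livers, and markers of other cells moved with the groups. The counts of markers below stand beside 8.41% of all tested genes higher and 2.73% lower. Of 8 tested cholangiocyte markers 3 were higher (Krt7, Epcam and Spp1) and 0 lower, and the summed level of the list was 40.1 to 66.0 CPM in Controls and 77.5 to 119.7 CPM in iTgMir483 livers. That separation rests on Spp1, which macrophages can also express: without it the sums were 23.6 to 28.0 CPM in Controls and 23.9 to 44.4 CPM in iTgMir483 livers and overlapped. Krt19 and Sox9, defining genes of bile duct cells, were not called (log2 fold changes 0.10 and 0.26, adjusted p = 0.825 and 0.425). Of 9 macrophage markers 8 were higher, with summed levels of 324.8 to 477.0 and 499.8 to 1475 CPM. The 3 tested neutrophil markers were higher (3.26 to 5.79 against 6.90 to 24.8 CPM for the list), and 0 of 8 stellate cell, 0 of 7 endothelial and 0 of 5 blood markers were called. Of 8 hepatocyte markers 1 fell (Cps1), and the median log2 fold change of the list was -0.37. Its summed level was 130100 to 179700 CPM in Controls and 68900 to 139200 CPM in iTgMir483 livers, and 29020 to 44210 and 20130 to 33850 CPM without Alb, which was below every Control in 4 of 6 iTgMir483 livers and was not called (log2 fold change -0.56, adjusted p = 0.160). Of 6 ileal genes, Fabp6, Fgf15 and Alpi had 0 counts in every library, Vil1 and Lct had too few to be tested, and Apoa4, which liver also expresses, rose (log2 fold change 2.14, adjusted p = 0.0146). The part of these cells in the rises of the 3 exporters and in the lower levels of synthesis and uptake genes was not tested.

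Slc10a2 (ASBT), which returns bile acids across the apical membrane of ileal and bile duct cells (chr8:5083219-5105351, minus strand), had 3.68 to 9.14 CPM in Controls (median 7.43) and 1.28 to 7.11 CPM in iTgMir483 livers (median 3.91). The groups overlapped, and the log2 fold change of -0.83 (SE 0.32) did not pass (adjusted p = 0.0834), although it did without iTgMir483 replicate 4 (-1.09, adjusted p = 0.0250). The 3 called cholangiocyte markers, named above, were higher. The receptor pair was not called: Fgfr4 stood at 46.1 ± 7.25 and 41.3 ± 5.53 CPM and Klb, its co-receptor, at 46.2 ± 3.80 and 54.5 ± 8.07 CPM (SD, n = 6 each, adjusted p = 0.365 and 0.122). Without iTgMir483 replicate 4, the log2 fold change of Klb was 0.31 (adjusted p = 0.0306), under the fold of 1.5.

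**Figure D4:**
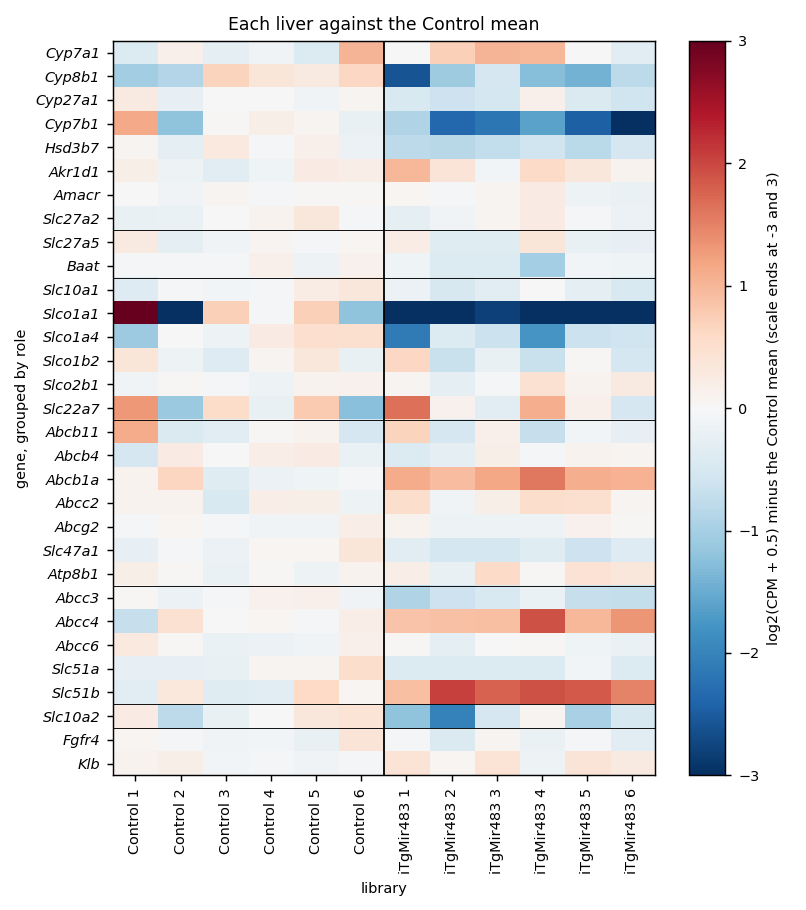
Each square is the log2(CPM + 0.5) of a gene in a liver minus the Control mean of that gene, with libraries as columns and the 31 genes as rows grouped by role, and the colour scale ends at -3 and 3. Cyp7b1 and Slco1a1 are blue and Abcb1a, Abcc4 and Slc51b red across the iTgMir483 livers, and Control 1 is red for Cyp7b1, Slco1a1, Slc22a7 and Abcb11.

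Further genes of the same pathways, listed by function with earlier results of these data known, were counted with the same test. Of 43 tested, 7 changed (16.28%, against 11.1% of all tested genes). Of these, 3 were higher (6.98%, against 8.41%) and 4 lower (9.30%, against 2.73%). Among 15 tested regulators 1 changed (6.67%, against 11.1%), and it fell. This was Nr1i3 (CAR), a receptor for foreign compounds and bilirubin, from 973.9 ± 176.4 to 403.7 ± 102.0 CPM (SD, n = 6 each). Its log2 fold change was -1.27 (adjusted p = 0.000478, SE 0.17), without overlap between groups. Nr1h4 (FXR), Nr0b2 (SHP), which represses Cyp7a1, and Nr5a2 were not called, with log2 fold changes of -0.02, -0.33 and 0.01 (adjusted p = 0.922, 0.315 and 0.949). Fgf15 had 0 counts in every liver.

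Of 10 tested further genes of synthesis, Scp2, which carries sterols and thiolyses the side chain, rose (log2 fold change 0.60, adjusted p = 0.00428) and the hydroxysteroid dehydrogenase Akr1c6 fell (-0.96, adjusted p = 0.0413). Cyp39a1, an oxysterol hydroxylase, had a log2 fold change of -0.77 (adjusted p = 0.0547). Cyp2c70, which makes muricholic acids, ranged from 27.2 to 335.8 CPM in Controls, with replicate 1 the highest, and from 57.8 to 371.9 CPM in iTgMir483 livers (adjusted p = 0.594). Of 18 tested further genes of transport and detoxification, Abcc1 and Abcc5, relatives of Abcc4, rose (0.86 and 0.68, adjusted p = 0.00521 and 0.0226). The prostaglandin carrier Slco2a1 and the bile acid sulphotransferase Sult2a8 fell (-0.76 and -1.53, adjusted p = 0.00254 and 0.0328).

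**Figure D5:**
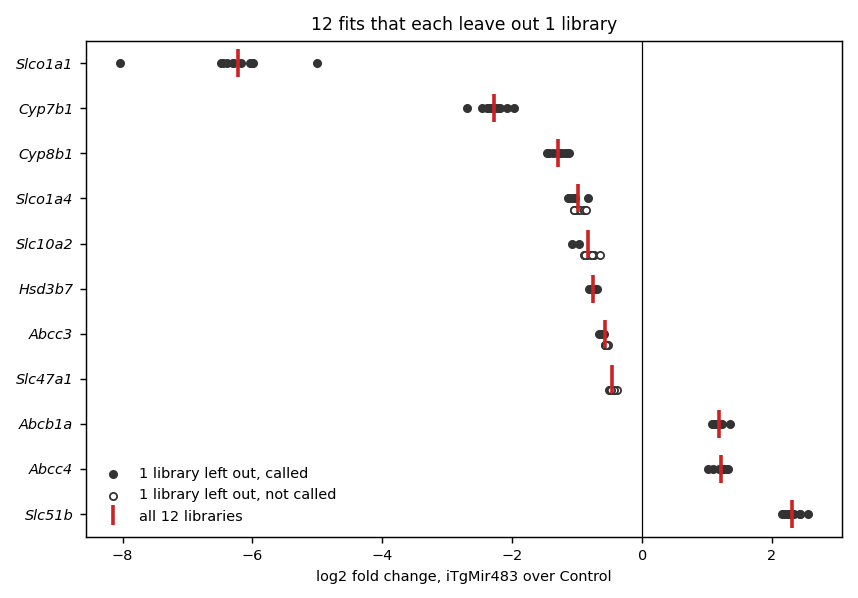
Log2 fold changes of 11 genes in 12 fits that each leave out 1 library (circles, filled where the gene was called, open and set a little lower where it was not) and with all libraries (red ticks). Slco1a1 spreads from -8.03 to -5.01, Slco1a4, Slc10a2 and Abcc3 hold both filled and open circles, and Cyp7b1, Cyp8b1, Hsd3b7, Abcb1a, Abcc4 and Slc51b were called in all 12 fits.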

How the data were processed

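Per the labels and the study's methods, polyadenylated liver RNA was made into stranded libraries of a single pool and sequenced as paired-end reads, and the authors aligned the reads with STAR to GRCm38 and deposited raw read counts per gene. The strand setting of the counting is not given in the sources used here, so overlapping and antisense genes are uncertain. The table held 0 rows naming no gene and 0 columns of no sample.

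In R 4.3.3, counts were filtered with filterByExpr of edgeR 4.0.16 (with limma 3.58.1) and scaled by TMM, and the 6 libraries of each group were compared by the quasi-likelihood test of edgeR with no covariate. An SE is the absolute log2 fold change over the root of its F statistic. CPM is the count over the TMM library size. Symbols, exon lengths and 3′ UTRs came from GENCODE M21. Tests were run on simulated counts first. Precision depends on the number of reads, lowest for Slc51a, and on the spread between livers. Slco1a1, with 4615 Control reads, had an SE of 1.10, and Slc51b, with 61, had one of 0.32. The study's methods give 6 female mice per group, and each library's label carries its own number, taken here as that of an animal. Each library was thus 1 replicate, and no pair of libraries within a group was near sampling noise (lowest chi-square per gene 15.65).

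Equal replicate numbers were not taken as pairs, since 2 of 6 had a correlation of deviations over 0.1. The Control and iTgMir483 libraries of replicate 1 carry neighbouring numbers in the labels, and so do those of replicate 4. Their deviations correlated at 0.47 for replicate 1 and at 0.028 for replicate 4. Which animals shared a litter is not given in the sources used here, and pairing by litter was not tested. Alternatives were RLE size factors, no count filter, at least 10 counts in every library, DESeq2 1.42.0, limma-voom, a test against a fold of 1.5, the adjusted p alone, a replicate block and leaving out libraries. The genes and lists were chosen with earlier results of these data known. Named genes were all 31, the called genes of the further lists, and markers beside a result they move with; Nr1h4, Nr0b2, Nr5a2, Fgf15, Cyp39a1, Cyp2c70, Dbp, Nr1d1, Cry1, Abcb1b, Slco1a5 and Slco1a6 were named after their values were seen.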

Additional observations from a re-analysis of the deposited data

Results flagged for a closer look

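The highest or lowest library of a group stood far from the other 5 (its gap over the group's range above Dixon's critical value for 6 values) in 10 of 62 groups of values. Chance would give about 3.1 if the values were independent and normally spread. CPM values can be skewed and the genes share the same libraries, so no conclusion is drawn from the comparison. Cyp7a1 in Control replicate 6 was at 242.9 CPM against 90.2 to 133.2 (ratio 0.718), and Cyp27a1 in iTgMir483 replicate 4 was at 502.1 CPM against 291.8 to 334.1 (0.799). Slco1a1 was at 180.9 CPM in Control replicate 1 against 1.78 to 34.9 (0.815) and at 2.58 CPM in iTgMir483 replicate 3 against 0 to 0.51 (0.802). Abcb11 in Control replicate 1 was at 762.0 CPM against 248.1 to 377.4 (0.748). Abcb1a was at 12.19 CPM in Control replicate 2 against 5.79 to 8.16 (0.630) and at 23.8 CPM in iTgMir483 replicate 4 against 15.0 to 17.6 (0.707). Abcc4 was at 25.0 CPM in iTgMir483 replicate 4 against 11.8 to 16.6 (0.633). Slc51a had 5 reads in Control replicate 6 (0.631) and 2 in iTgMir483 replicate 5, where the other 5 libraries had 0 (1.0), so these ratios rest on very few reads. The library concerned was iTgMir483 replicate 4 in 3 of the 10 and Control replicate 1 and Control replicate 6 in 2 each.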

How the results depend on the processing

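Of 567 values of single genes under the alternatives, 534 kept their direction and their side of the threshold, 8 lost a call, 14 gained one and 11 turned in direction, all of the last in genes not called. The number of all tested genes that changed was 1470, 2457 with the adjusted p alone, 226 in the test against a fold of 1.5 and 1190 to 1653 with 1 library left out. Of the 30 genes 8 changed, 5 of them lower. With at least 10 counts in every library 5 changed, 3 lower, since Slco1a1, Cyp7b1 and Slc51b were then not tested. In the test against a fold of 1.5, 4 changed, 2 lower, and with 1 library left out 7 to 9, 4 to 6 lower. Of the further pathway genes 7 changed, 1 in the test against a fold of 1.5 and 4 to 8 with 1 library left out, with 4 without Control replicate 4, Control replicate 5 or iTgMir483 replicate 3.

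With the replicate block 10 genes changed, Abcc3 (-0.59) and Slc10a2 (-0.92, adjusted p = 0.0242) being added, and 1530 of all genes, and the block changed no other call among the 30. Replicate numbers correlated best with their own number in 2 of 6 Controls. Slc10a2 also passed with DESeq2 (-0.85, adjusted p = 0.0411), and limma-voom lost Slco1a1 (-6.42). Directions turned for Amacr (0.010 with at least 10 counts in every library, -0.054 to 0.035 with 1 library left out), Abcb11 (-0.37 to 0.16), Slc27a2 (-0.11 to 0.026), Abcg2 (-0.063 to 0.012) and Slc22a7 (-0.081 to 0.63). The cause of these changes was not tested. Slc51a, Slc51b and Slco1a1 rest on few reads in 1 or both groups, and Slco1a1 also varied from 1.78 to 180.9 CPM between Controls.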
